A study of Oryza sativa with 6 samples.

Results

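In L-type lateral roots of the rice cultivar IR29, 83 of 38042 loci held far fewer fragments than in the other IR29 root types, while the Mulai L-type library stayed near the Mulai nodal level. The loci were chosen from these same values by a fixed rule. In IR29 the L-type value was at least 4-fold below both the nodal and the S-type value, each of which was 50 or more. In Mulai the L-type value was 50 or more and lay within 1.5-fold of the nodal value. Loci whose S-type over nodal change was 2-fold or more in opposite directions in the 2 cultivars were left out. All ratios of the rule were taken after adding 1 to each value. The values are scaled fragment counts per locus, in which 1 read was worth between 0.601 units (Mulai nodal) and 1.5 units (IR29 S-type). Because the fall in IR29 and the steady level in Mulai chose the loci, both are described below without a test.

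Messenger RNA of rice (Oryza sativa) was sequenced from nodal, S-type lateral and L-type lateral roots of Mulai, labelled salinity tolerant, and IR29, labelled salinity sensitive. Each cultivar and root type gave 1 library, 6 in all, with no replicate. All plants grew at 30 °C by day and 25 °C by night, at 70% and 75% humidity, with 12 h of day and 12 h of night. The labels name no salt treatment, transgene or mutation for any library, and give neither the age of the plants nor the number pooled in a library.

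Rice forms its adult root system from nodal roots, which emerge at the stem nodes and carry the lateral roots. S-type laterals are short, slender and unbranched and soon stop growing. L-type laterals are longer and thicker, keep growing and bear laterals of their own, so that they resemble small main roots. The deposited table gives identifiers made during assembly or quantification and pairs none of them with a gene name, and 0 of them matched the 39387 genes of the RefSeq table at hand (assembly ASM3414082v1). Functions, sequences and positions are therefore not described, markers of root or shoot tissue could not be checked, and at most 4 loci are given by identifier. In whole roots, fewer cells that express a locus and less RNA per cell cannot be told apart.

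Library totals ran from 3891153 reads (IR29 L-type) to 7904454 reads (Mulai nodal), and the other IR29 libraries held 4253677 (nodal) and 4083173 (S-type). The IR29 L-type library was thus the shallowest, by a small margin within its cultivar. Across 20316 loci with a value of 10 or more in at least 2 libraries, the log2 levels of the L-type libraries of the 2 cultivars correlated at r = 0.71, those of the nodal libraries at r = 0.80 and those of the S-type libraries at r = 0.79. Growth, preparation and sequencing batches of the cultivars are not given, so that cultivar and batch cannot be told apart.

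The name under which these loci were grouped speaks of loss, but none of them was without reads in IR29 L-type roots. Their read numbers there ran from 2 to 229 with a median of 18. Of the 83 loci, 25 (30.1%) had 10 or fewer reads, and 6 had 3 or fewer. The data therefore show loci that were reduced in this library, in most cases to a level that could still be counted.

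The median level of the 83 loci was alike in 5 libraries and low in the remaining one, while single loci varied more. In Mulai nodal roots the lowest, median and highest values were 42.7, 173 and 6519. Mulai S-type roots gave 22.2, 178 and 8955, and Mulai L-type roots 52.2, 168 and 5249. IR29 nodal roots gave 50.7, 167 and 2644, and IR29 S-type roots 51.1, 165 and 4621. The medians of these 5 libraries lay between 165 and 178. In IR29 L-type roots the lowest, median and highest values were 2.34, 21.1 and 268. That library was the lowest of the 6 at 83 of 83 loci, and at 80 of them it was below 50% of the lowest other library. The latter comparison includes Mulai S-type roots, for which the rule set no level.

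**Figure D1:**
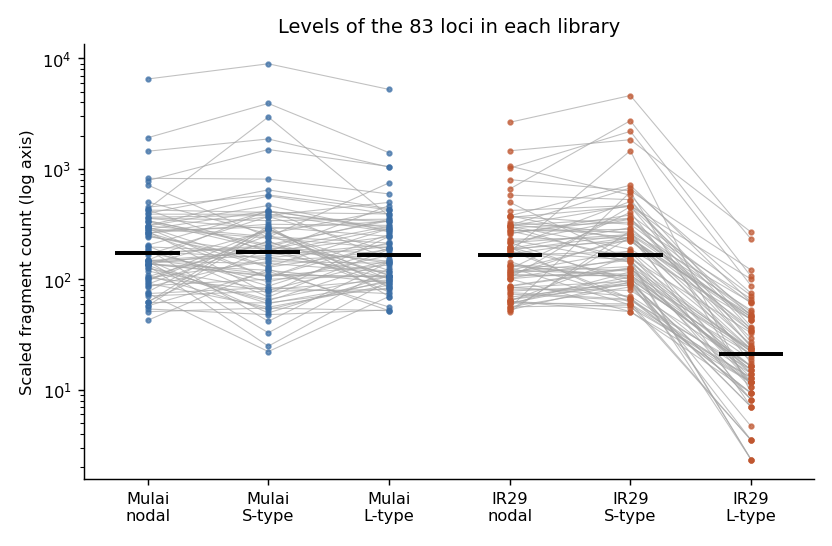
Scaled fragment counts (log axis) of the 83 loci in the 6 libraries, 1 point per locus, with thin lines joining the values of a locus within a cultivar and a black bar at the median. The medians lie between 165 and 178 in 5 libraries and at 21.1 in the IR29 L-type library, as the rule that chose the loci requires in part.

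The fall was moderate at most loci and steep at a few. Against the lower of the IR29 nodal and S-type values, 63 loci were between 4-fold and 8-fold lower, 14 between 8-fold and 16-fold, and 6 at least 16-fold (on value + 1). The median log2 difference was -2.44. Without the added 1, the median ratio was 5.60-fold. Counting error alone is wide at these depths. The exact 95% counting interval of the ratio lay wholly past 2-fold at all 83 loci, but wholly past 4-fold at only 30. These intervals come from the same reads that chose loci with a ratio of 4-fold or more and take no account of that choice. The nodal value was the lower of the 2 at 49 loci and the S-type value at 34. Seen against each root type separately, the median log2 difference was -2.69 to nodal and -2.79 to S-type roots. Intervals here and below cover counting error only.

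The steepest fall was that of XLOC_018696. Its values were 291, 104 and 256 in Mulai nodal, S-type and L-type roots, and 499, 149 and 2.34 in the same root types of IR29. The IR29 L-type value rested on 2 reads, against 99 in IR29 S-type roots. This was a ratio of 63.6 (95% counting interval 17.1 to 532) to the S-type library. XLOC_037817 followed, with values of 188, 41.8 and 144 in Mulai nodal, S-type and L-type roots. In IR29 its values were 301, 143 and 2.34, again with 2 reads in the L-type library. The ratio to the IR29 S-type library was 61.0 (16.4 to 511). Both loci were highest in nodal roots of their cultivar, and in both the Mulai L-type library lay between the other Mulai root types. Between the L-type libraries, IR29 was 109-fold lower than Mulai for XLOC_018696 (30.0 to 906) and 61.3-fold lower for XLOC_037817 (16.7 to 511). Both intervals are wide because the IR29 count is so small.

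The most abundant of the 83 loci shows the fall with narrow counting error. It had values of 6519, 8955 and 5249 in Mulai nodal, S-type and L-type roots and of 2644, 4621 and 232 in IR29. With 198 reads left in IR29 L-type roots, the ratio to the IR29 nodal library was 11.4 (9.86 to 13.2). The locus with the steadiest level elsewhere had values of 74.5, 84.5 and 74.4 in Mulai nodal, S-type and L-type roots, and of 78.4 and 88.7 in IR29 nodal and S-type roots. These 5 libraries differed by at most 1.19-fold, and IR29 L-type roots had 7.03, from 6 reads (11.2-fold below nodal, interval 4.87 to 31.5). Both loci were chosen after their values were seen.

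Together the 83 loci took 0.577% of all reads in Mulai nodal roots (exact 95% binomial interval 0.572 to 0.583), 0.636% in Mulai S-type roots (0.629 to 0.642) and 0.517% in Mulai L-type roots (0.511 to 0.523). In IR29 they took 0.434% of nodal reads (0.428 to 0.440) and 0.489% of S-type reads (0.482 to 0.496). In IR29 L-type roots the share was 0.0608% (0.0584 to 0.0633), from 2366 reads. The drop within IR29 follows from the rule, which put every locus at least 4-fold below IR29 nodal and S-type roots. This holds with or without any 1 locus. Without the most abundant locus the shares ran from 0.380% to 0.475% in the other 5 libraries and came to 0.0557% in IR29 L-type roots.

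Loci that met every condition of the rule other than the fall numbered 7238, of which the 83 were 1.15%. The other 7155 are called comparison loci below. Their median log2 difference of IR29 L-type roots to the lower of IR29 nodal and S-type roots was 0.38, against -2.44 for the 83. To each root type separately it was 0.07 (nodal) and 0.08 (S-type). The contrast with the 83 follows from the rule, since the comparison loci are those without the fall. Just outside the limit of 4-fold lay loci with falls of 3.97-fold, 3.96-fold and 3.94-fold, and just inside it loci with 4.05-fold, 4.05-fold and 4.05-fold. The nearest locus outside had 54.1 in IR29 S-type and 12.9 in IR29 L-type roots, and the nearest inside 64.7 and 15.2. The limit does not mark a gap in the data.

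With the cultivars exchanged, the same rule found no locus. At least 4-fold below both other root types, and with both of those at 50 or more, were 187 of 10648 loci in IR29 L-type roots and 5 of 11158 in Mulai L-type roots. No locus was in both sets. The 5 Mulai loci all had an IR29 L-type value under 50 and so could not meet the condition of a steady level. Among the 4734 loci that met every other condition of the exchanged rule, the steepest fall was 3.37-fold, from 259 in Mulai nodal and 361 in Mulai S-type roots to 76.1 in Mulai L-type roots. At a fall of 2-fold or more the counts were 11 of 4734 loci (0.232%) in Mulai and 419 of 7238 (5.79%) in IR29. With the direction turned, 4 loci were at least 4-fold higher in IR29 L-type roots than in both other IR29 root types and steady in Mulai. For these the IR29 minimum of 50 applied to the L-type value only. They were thus drawn from other loci than the 7238, and the 2 counts are not like for like. These counts each rest on single libraries and were not tested. Across the 20316 loci, log2 levels of Mulai L-type roots correlated at r = 0.90 with Mulai nodal and 0.91 with Mulai S-type roots. In IR29 the same correlations were 0.83 and 0.84. The IR29 L-type library thus differed more from its own cultivar's other root types over all loci. Whether this plays a part in the counts was not tested. With every library set to a common total, 57 loci met the rule, and 53 did so with reads also thinned to the smallest library total.

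Of the 187 loci that were low in IR29 L-type roots, 20 had a Mulai L-type value under 50. In Mulai L-type roots 41 were more than 1.5-fold lower than in nodal roots and 41 more than 1.5-fold higher. The remaining 85 were steady by the rule, and 2 of them were left out for opposite S-type over nodal changes. Mulai L-type roots thus gave no common direction for the loci that were low in IR29 L-type roots.

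**Figure D2:**
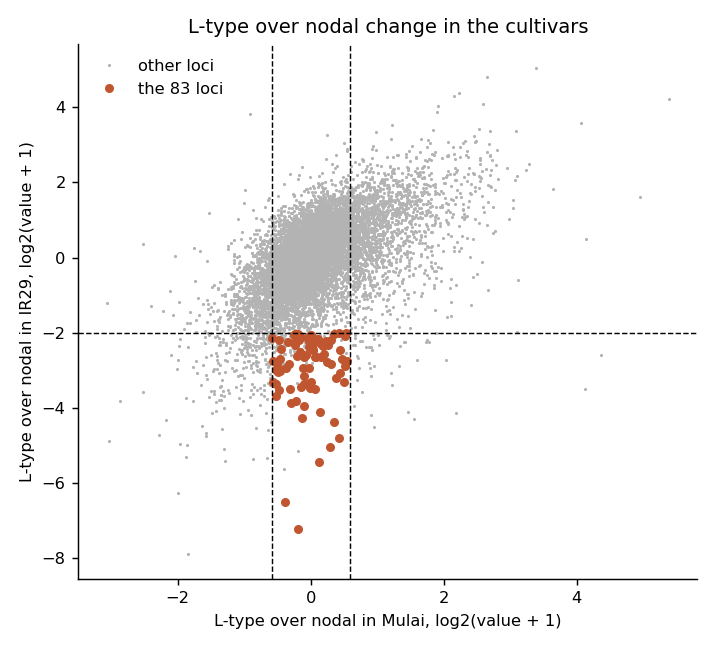
Log2 difference of L-type and nodal roots in Mulai (horizontal) and in IR29 (vertical), on value + 1, for 10172 loci with a value of 50 or more in IR29 nodal, IR29 S-type and Mulai L-type roots. The 83 loci (orange) lie within the window set by the dashed lines at 1.5-fold in Mulai and 4-fold in IR29. Other loci (grey) also lie inside it, since the fall against S-type roots and the removal of opposite changes are not drawn.

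A steady level in Mulai was required against nodal roots only. Measured against Mulai S-type roots, the Mulai L-type value was lower by 2-fold or more at 14 of the 83 loci (16.9%), 2 of them by 4-fold or more, and higher by 2-fold or more at another 14 (16.9%). Of all 20316 loci 11.2% were lower and 16.1% higher to this extent, and of the 7155 comparison loci described above 5.09% and 6.36%. The Mulai L-type value lay between the nodal and S-type values at 43 loci, below both at 25 and above both at 15. At the 2 loci at least 4-fold below S-type roots in Mulai, a low L-type level relative to S-type roots was therefore not particular to IR29.

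Differences of S-type and nodal roots were fitted in the 4 libraries of these root types, without the L-type libraries. The rule also used values of this comparison. Both IR29 values had to be 50 or more and at least 4-fold above the IR29 L-type value. Mulai nodal roots had to lie within 1.5-fold of a Mulai L-type value of 50 or more, and 2 loci with opposite changes were removed. Among the 83 loci 9 rose and 9 fell in the S-type libraries (limma with a term for cultivar, adjusted p under 0.05, 2 libraries per root type). Among all 19470 loci tested, 15.6% rose and 15.3% fell, so that 30.8% changed, against 21.7% of the 83. The median absolute log2 change was 0.49 for the 83 loci and 0.81 for all loci tested, which did not have to meet these limits. The fit had 1 residual degree of freedom. The count was 15 with edgeR's quasi-likelihood test and 9 with DESeq2 on the recovered reads (5403 and 3681 of all 19470 loci). With edgeR 9 rose and 6 fell, and with DESeq2 7 rose and 2 fell, so that mainly loci that fell lost their call. The count was 1, a locus that rose, with all 6 libraries in the fit, which called 4203 of all 20316 loci. There the low IR29 L-type value that chose the loci is part of the residual spread. Leaving out a library also needs the L-type libraries in the fit, since otherwise no residual degree of freedom remains. Each fit of this kind called fewer of all loci than the main fit did. Such fits called none of the 83 loci without Mulai nodal, IR29 nodal or IR29 S-type roots (1, 5 and 8 at an unadjusted p under 0.05, limma) and 3 without Mulai S-type roots.

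The 9 loci that rose did so by log2 changes of 1.15 to 2.48 (limma, adjusted p from 0.00794 to 0.0416). Their increase was 0.88 to 2.77 in Mulai and 0.94 to 3.46 in IR29. In IR29 L-type roots they were lower than in nodal roots by log2 differences of -2.02 to -2.76. Their fall was thus shallow against nodal and deep against S-type roots, at -3.20 to -5.75. The 9 loci that fell in S-type roots changed by -0.92 to -1.68 (adjusted p from 0.0112 to 0.0491). In IR29 L-type roots these were -3.01 to -7.23 below nodal and -2.04 to -5.49 below S-type roots. Since the rule holds Mulai L-type roots near nodal roots, the 9 that rose kept a nodal level there, and 7 of them were at least 2-fold below Mulai S-type roots. Of the 9 that fell, 7 were at least 2-fold above Mulai S-type roots in Mulai L-type roots.

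XLOC_020234 had the largest rise. Its values were 149, 424 and 153 in Mulai nodal, S-type and L-type roots, and 55.3, 620 and 10.5 in IR29. S-type exceeded nodal roots 2.84-fold in Mulai (95% counting interval 2.43 to 3.33) and 11.2-fold in IR29 (8.29 to 15.4). In the limma fit this was 2.48 ± 0.49 on the log2 scale (SE), with an adjusted p of 0.0189. The adjusted p ranged from 1.18e-07 to 0.486 over the alternatives. It missed the threshold without Mulai nodal (0.335), IR29 nodal (0.366) and IR29 S-type roots (0.486), and the log2 rise ran from 0.92 without IR29 S-type to 4.04 without Mulai S-type roots (limma). Its IR29 L-type value came from 9 reads and was 5.25-fold below IR29 nodal roots (2.55 to 12.2), which were themselves low in this cultivar. XLOC_010297 was far more abundant, with 433, 2955 and 375 in Mulai nodal, S-type and L-type roots and 658, 2735 and 107 in IR29. Its S-type over nodal ratio was 6.82 in Mulai (6.29 to 7.40) and 4.16 in IR29 (3.78 to 4.57). The limma fit gave 2.41 ± 0.31 on the log2 scale (SE), with an adjusted p of 0.00794. Over the alternatives the adjusted p ranged from 6.62e-09 to 0.201. It too missed the threshold without Mulai nodal (0.201), IR29 nodal (0.104) and IR29 S-type roots (0.0973), with log2 rises between 1.63 and 3.19 over the fits without 1 library (limma). In IR29 L-type roots it was 6.18-fold below nodal roots (4.94 to 7.79). For this locus the Mulai L-type value was also far below the Mulai S-type value, so that the cultivars differed in whether L-type roots kept the nodal level. The loci with the steepest falls, XLOC_018696 and XLOC_037817, were both among the 9 that fell in S-type roots. Their log2 changes were -1.61 ± 0.25 (SE, adjusted p = 0.0112) and -1.60 ± 0.36 (adjusted p = 0.026, limma). In the fits without 1 library, no locus of the 83 passed as lower in S-type roots.

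**Figure D3:**
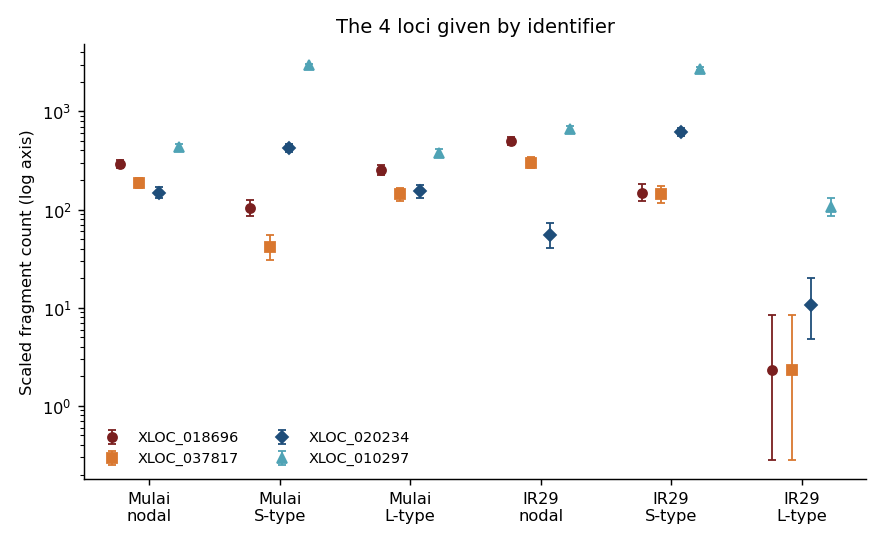
Scaled fragment counts (log axis) of 4 loci in the 6 libraries, with exact 95% counting intervals from the reads. XLOC_018696 and XLOC_037817 had 2 reads each in IR29 L-type roots, while XLOC_020234 and XLOC_010297 were highest in S-type roots of both cultivars and lowest in IR29 L-type roots.

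Within single cultivars the S-type over nodal changes of the 83 loci were mixed. By a limit of 2-fold in each cultivar, 44 loci (53.0%) were even in both, 7 were higher in S-type roots in both and 5 lower in both. In Mulai alone 9 passed the limit upward and 11 downward, and in IR29 alone 5 upward and 2 downward. Among the 7155 comparison loci 71.7% were even in both cultivars. Of the 83 loci 19.3% were higher and 19.3% lower in Mulai S-type roots, beside 19.8% and 22.3% of all 20316 loci and 8.32% and 9.18% of the comparison loci. In IR29 the members' shares were 14.5% higher and 8.43% lower, beside 23.7% and 23.4% of all loci and 10.2% and 10.4% of the comparison loci. Across the 83 loci the changes of the 2 cultivars, which share no library, correlated at r = 0.58 and rho = 0.54. The value was r = 0.72 across the 7155 comparison loci. Loci are not replicates and the rule removed opposite changes, so that these are descriptions only.

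**Figure D4:**
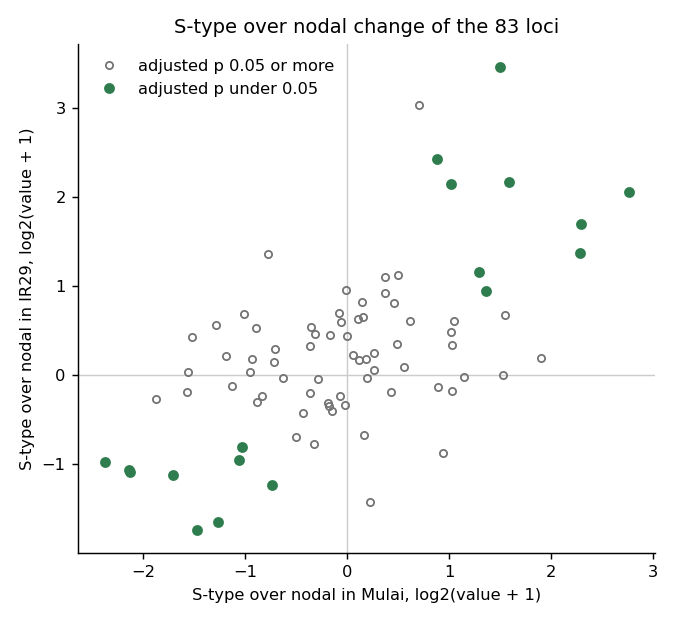
Log2 difference of S-type and nodal roots in Mulai (horizontal) and in IR29 (vertical), on value + 1, 1 point per locus. The 18 loci with adjusted p under 0.05 (filled) lie in the upper right (9 loci) and lower left (9 loci). The other loci (open) lie near the origin and also far from it, as at 0.70 in Mulai and 3.04 in IR29.

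IR29 was then compared with Mulai in nodal and S-type roots, to ask whether the loci already differed between the cultivars outside the L-type roots. The rule limited this comparison too. Both IR29 values had to be 50 or more, and Mulai nodal roots had to lie within 1.5-fold of a Mulai L-type value of 50 or more. Loci almost absent from nodal roots of either cultivar could thus not be among the 83, but are among all loci tested. The limma fit of the 4 libraries, with 1 residual degree of freedom, placed 2 loci higher and 1 lower in IR29 at an adjusted p under 0.05. Of all 19470 loci tested, 2.2% were higher and 3.54% lower, 5.74% in all, against 3.61% of the 83. The 83 thus lay near the share of all loci, which did not have to meet these limits, so the nearness is no separate result. Loci without a call are not shown to be alike in the cultivars. The median log2 difference of the 83 loci was 0.01, and their median absolute difference was 0.42, against 0.35 for all loci. At an unadjusted p under 0.05 there were 15 of the 83 loci (18.1%), and 15.1% of all loci. The count of 3 was 2 with edgeR and 4 with DESeq2 (798 and 741 of all 19470 loci). With limma it was 8 without a filter on low values (2650 of all 28308 loci) and 1 with a filter at 50 (485 of 13963). Without a term for root type it was 0 (4 at an unadjusted p under 0.05, limma), and 0 of all 19470 loci were called. Fits with the L-type libraries, which leaving out a library requires, include in the cultivar term the IR29 L-type values that chose the loci. All their calls among the 83 were lower in IR29, and they are no check on nodal and S-type roots.

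The 2 loci higher in IR29 differed little between root types in Mulai, and the 3 loci called here are given without identifiers. The first had 51.1, 55.2 and 52.2 in Mulai nodal, S-type and L-type roots, and 190 and 295 in IR29 nodal and S-type roots. Its IR29 L-type value of 34.0 was the closest of all 83 loci to the lowest other library, at 66.5% of it. Here the fall within IR29 brought the locus from above its Mulai level to below it. The second had 138, 107 and 135 in Mulai nodal, S-type and L-type roots and 364 and 457 in IR29 nodal and S-type roots, with 46.8 in IR29 L-type roots. The locus lower in IR29 had 168, 371 and 181 in Mulai, in the same order, and 61.1, 60.2 and 12.9 in IR29. It was low in all IR29 root types and lowest in the L-type roots.

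Single root types showed wider differences between the cultivars. At a limit of 2-fold, IR29 nodal roots were lower than Mulai nodal roots at 13 of the 83 loci (15.7%) and higher at 4 (4.82%). The shares were 13.4% and 7.64% over all 20316 loci, and 1.89% and 1.68% over the 7155 comparison loci, which have similar minimum levels. For S-type roots IR29 was lower to this extent at 10 loci (12.05%) and higher at 12 (14.5%), beside 14.0% and 14.7% of all loci and 2.88% and 4.82% of the comparison loci. The 83 thus lay near the share of all loci, which include many with few reads, and above that of the comparison loci. Within 2-fold between the cultivars in both root types were 50 of the 83 loci (60.2%) and 90.0% of the comparison loci. The median value of the comparison loci in IR29 nodal roots was 219, against 167 for the 83. Whether this gap in level plays a part was not tested.

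In L-type roots, where the rule fixes most of the outcome, IR29 was lower at 83 of 83 loci and at least 2-fold lower at 82, beside 25.8% of all 20316 loci and 9.9% of the comparison loci. The median log2 difference of IR29 and Mulai was -2.93 in L-type roots, -0.06 in nodal roots and 0.07 in S-type roots. For the comparison loci the medians were 0.15, 0.06 and -0.01 in the same order.

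**Figure D5:**
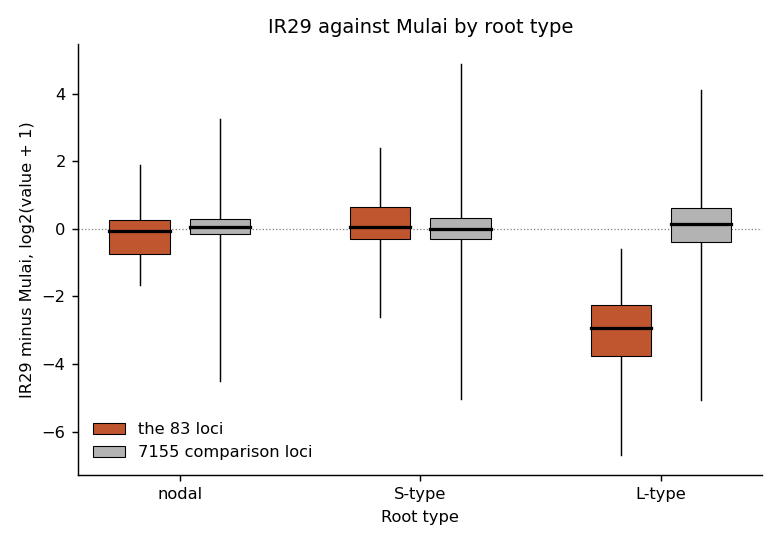
Log2 difference of IR29 and Mulai, on value + 1, in nodal, S-type and L-type roots for the 83 loci (orange) and the 7155 comparison loci that met every other condition of the rule (grey). Boxes span the quartiles, the bar marks the median and the line runs from the lowest to the highest locus. The orange medians are -0.06, 0.07 and -2.93, and the last follows from the rule.

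Across the 83 loci the log2 levels of the 2 cultivars correlated at r = 0.82 in nodal, r = 0.81 in S-type and r = 0.60 in L-type roots. Across the 7155 comparison loci the values were 0.94, 0.90 and 0.78. The L-type values of both sets use levels that the rule limited, so the lower figure there is not a separate result. These correlations are given as descriptions over loci that share their libraries and depths.

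In the 5 libraries outside IR29 L-type roots, the highest value + 1 exceeded the lowest by a median of 2.25-fold over the 83 loci and 1.82-fold over the comparison loci. At 28 of the 83 loci (33.7%) these 5 libraries lay within 2-fold of each other, and at 11 within 1.5-fold. Of the comparison loci 59.8% lay within 2-fold. At 18 of the 83 the 5 libraries spanned more than 4-fold. An even level broken only in IR29 L-type roots therefore described 28 of the 83 loci at this limit, and the other 55 varied more among the remaining libraries.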

How the data were processed

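Strand-specific mRNA libraries (insert size 200 bp) were made from total RNA, per the labels' protocols. The submitters' processing notes name the build IRGSP-1.0 and, as tools, Cuffdiff 2.2.1, Cufflinks 2.2.1, TopHat2 2.0.11, Bowtie and Trimmomatic 0.32. The sources used here do not state options, annotation, strand handling or how multiply aligned reads were counted, and reads that similar loci share may have been split.

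The authors deposited 1 table with a signal per locus and library: fragment counts multiplied by 1 factor per library. Values above 0 were multiples of 1 step per library in 100% of cases (tolerance 0.1 read, largest gap 0.0753), and division by the step recovered whole reads. The 24 columns of variances and status flags were left aside.

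The members were found on the deposited values. Members, lists and tests were chosen with earlier results of these data known. Loci with a value of 10 or more in at least 2 of the 4 nodal and S-type libraries were fitted with limma 3.58.1 (R 4.3.3) on log2(value + 1), with terms for cultivar and root type and a variance trend. P-values were adjusted by Benjamini and Hochberg over all loci, with a threshold of 0.05. Fold changes on this scale understate the change of low loci. Separate plants per library are not stated in the labels, and p-values reflect the spread of these libraries alone. edgeR 4.0.16 and DESeq2 1.42.0 were run on the recovered reads as alternatives, and called 5403 and 3681 loci between S-type and nodal roots, where limma called 6003. Between the cultivars they called 798 and 741, where limma called 1118. The fits were tested on simulated data. Ratios of reads have exact binomial intervals (95%).

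The rule for loci given by identifier, needed because no gene names were paired, took the 2 members with the steepest fall in IR29 L-type roots and the 2 with the largest called rise in S-type roots. No gene or marker list could be applied.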

Additional observations from a re-analysis of the deposited data

How the results depend on the processing

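The number of loci found by the rule (83) followed its limits: it was 165 at a fall of 3-fold and 20 at 8-fold, 47 with a minimum of 100 and 127 with 25, and 52 with a narrower Mulai window and 127 with one of 2-fold. Library factors from edgeR's TMM method gave 84 loci, 79 of them among the 83, and DESeq2's median ratios gave the same 83. Adding 0.5 in place of 1 to each value gave 86 loci, and adding 5 gave 64. With reads thinned to the smallest total and every library set to 1 common total the number was 53, of which 49 were among the 83. Without thinning, the common total alone gave 57, an alternative added after the data were seen. The median log2 fall (-2.44) stayed between -2.47 and -2.21 in 8 alternatives. For S-type against nodal roots (18 of the 83 loci), DESeq2 gave 9 (7 higher, 2 lower), all 6 libraries 1 (higher), and no cultivar term 5 (all higher). These called 3681 of 19470, 4203 of 20316 and 2797 of 19470 over all loci. For IR29 against Mulai (3 loci, 2 of them higher in IR29), the values were 8 without a filter, 1 with a filter at 50 and 0 without a term for root type (4 at an unadjusted p under 0.05, limma). The same fits called 2650 of 28308, 485 of 13963 and 0 of 19470 over all loci. With all root types in the fit, the counts without each nodal or S-type library ran from 0 to 3 loci between S-type and nodal roots and from 1 to 7 between the cultivars. They were 0 without Mulai nodal, IR29 nodal or IR29 S-type roots (1, 5 and 8 at an unadjusted p under 0.05, limma) and 3 without Mulai S-type roots. Between the cultivars they were 1 without either nodal library, 5 without Mulai S-type and 7 without IR29 S-type roots, and 1 with all 6 libraries. All of these calls were lower in IR29, 1 in each fit was among the 3, and the cultivar term there includes the IR29 L-type values that chose the loci, so they say nothing of nodal and S-type roots alone. The lone library of a root type is then assumed to vary like the others. Over all loci, these fits called 73 to 3130 and 1046 to 1690, and the other alternatives 2797 to 8461 and 0 to 2650. The cause was not tested. The rise of XLOC_020234 missed the threshold with all 6 libraries (adjusted p = 0.107, limma) without the cultivar term (0.0549), and without Mulai nodal (0.335), IR29 nodal (0.366) or IR29 S-type roots (0.486). That of XLOC_010297 missed it without the same libraries (0.201, 0.104 and 0.0973). The sign of the fall was fixed by the rule, so its range is no sign of stability. At the depth of these libraries the counting interval lay wholly past 4-fold at 30 of the 83 loci. No pairing by replicate was possible, since each cultivar and root type gave 1 library. The cultivar term already sets root types against each other within a cultivar, so that the cultivars serve as pairs.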

Other observations

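The 2 loci left out for opposite S-type over nodal changes otherwise met the rule. The first had 67.9, 25.8 and 59.0 in Mulai nodal, S-type and L-type roots and 128, 970 and 11.7 in IR29. The second had 118, 39.2 and 112 in Mulai and 91.1, 224 and 12.9 in IR29, in the same order. In both, S-type roots were the lowest root type of Mulai and the highest of IR29.

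No pair among the 83 loci had consecutive identifiers, and the smallest step between the numbers of neighbouring members was 11, with a median of 343. Whether these numbers follow the position of the loci in the genome is not given in the sources used here.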
